A study of Mus musculus with 3 samples.

Results

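The genes described here are 10 mast cell genes, 7 granule proteases and 3 surface receptors, taken by name from the 19938 genes that had a probe set with 1 gene symbol on the colonic arrays. The proteases were Mcpt1, Mcpt2, Mcpt4, Cma1, Tpsb2, Tpsab1 and Cpa3, and the receptors were Kit, Fcer1a and Ms4a2. Each of the 10 had 1 such probe set. The study placed RNA from the distal colon of young adult male BALB/c mice on 3 arrays, 1 per group. The IL-4Rα-/- colitis array held RNA pooled from 6 mice that carry a germline knockout of Il4ra and drank 3% dextran sulfate sodium (DSS) until day 7. The WT colitis array held RNA pooled from 3 wild-type littermates given the same DSS, and the WT normal array RNA pooled from 4 wild-type mice on plain water. An untreated IL-4Rα-/- array was not analysed here, so an effect of the genotype without DSS cannot be read from these values. With 1 array per group there is no replicate error, and every difference below is a description of these 3 pools without a p-value. The pools also differed in severity, with a disease activity index of 0 to 3 in the IL-4Rα-/- colitis mice, 3 to 4 in the WT colitis mice and 0 in the WT normal mice, and genotype and severity cannot be told apart.

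Mast cells are tissue-resident immune cells that store proteases in their granules and release them when antigen crosslinks IgE on the high-affinity receptor FcεRI. In mice they fall into a mucosal type, which lies in the epithelium and lamina propria and expands in type 2 immune responses, and a connective tissue type, which lies in the submucosa, around vessels and in the skin. Mucosal cells are marked by the chymases encoded by Mcpt1 and Mcpt2, while the chymases of Mcpt4 and Cma1 and the tryptases of Tpsb2 and Tpsab1 mark connective tissue cells. Carboxypeptidase A3 (Cpa3) was treated here as a protease of both types and kept apart, which is a choice. Kit is the receptor for stem cell factor, on which mast cell survival depends, and Fcer1a and Ms4a2 encode the α and β chains of FcεRI.

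The values are log2 signals, so a difference of 1 is 2-fold. As a guide to background, 1193 probe sets for olfactory and vomeronasal receptors were used, genes taken here to be mostly silent in the colon. They had a median log2 signal of 2.44 and a 95th percentile of 3.5, and a signal at or under 3.5 is called background here. Array medians over all probe sets lay between 4.11 and 4.18. Il4ra had a log2 signal of 4.76 in IL-4Rα-/- colitis, 6.63 in WT colitis and 5.69 in WT normal, lowest on the array labelled as its knockout but above background there, and whether its probes lie in the deleted part is not known here. Markers of the tissue were present, since all 8 epithelial genes and all 6 smooth muscle genes looked up were at 8.95 or higher on each array. Many deposited values were identical between arrays to both decimals. Of the 19938 genes, 45.8% had 1 and the same value on all 3 arrays, and 65.8% had the same value in IL-4Rα-/- colitis and WT normal.

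The genes of both mucosal chymases and Cpa3 were the ones that stood out, and the regulatory sequence just before 3 of the genes is shown. Mcpt1 and Mcpt4 were taken because these chymase genes of the same chromosome are nearly the same there. Cpa3 was taken because its differences were among the largest of the 10. The 250 bases before the start come from RefSeq (GRCm38.p6), at chr14:56017714-56017963 on the plus strand for Mcpt1, chr14:56062311-56062560 on the minus strand for Mcpt4 and chr3:20242182-20242431 on the minus strand for Cpa3. They are written 5′ to 3′, with the motif GATAA, the core bound by GATA factors of mast cells, in capitals.
Mcpt1: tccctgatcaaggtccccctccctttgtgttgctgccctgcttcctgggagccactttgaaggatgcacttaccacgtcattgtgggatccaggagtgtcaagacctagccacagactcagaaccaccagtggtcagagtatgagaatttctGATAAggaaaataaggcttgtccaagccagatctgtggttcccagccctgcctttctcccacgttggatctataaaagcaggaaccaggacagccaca
Mcpt4: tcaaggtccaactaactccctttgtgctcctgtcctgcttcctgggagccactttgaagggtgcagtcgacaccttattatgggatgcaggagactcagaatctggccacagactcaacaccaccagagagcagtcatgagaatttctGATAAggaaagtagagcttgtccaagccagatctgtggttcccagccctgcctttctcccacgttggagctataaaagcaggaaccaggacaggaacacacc
Cpa3: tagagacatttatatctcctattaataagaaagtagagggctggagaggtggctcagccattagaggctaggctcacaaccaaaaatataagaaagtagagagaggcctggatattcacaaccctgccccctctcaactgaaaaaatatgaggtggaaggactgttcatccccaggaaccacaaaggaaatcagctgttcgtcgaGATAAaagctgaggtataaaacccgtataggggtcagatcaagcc
Of the 10 genes, 7 had an entry in the sequence table, all but Mcpt2, Tpsb2 and Tpsab1. The windows of Mcpt1 and Mcpt4 had 212 identical bases among 240 aligned, an identity of 88.3%, and the GATAA motif began 98 bases before the start of Mcpt1 and 102 bases before that of Mcpt4, inside a stretch that both share. In Cpa3 it began 45 bases before the start. On either strand, GATAA was found in 6 of the 7 genes, against 22.6% of the 32851 windows of the same length in the table. The motif TTCNNNNGAA, the spacing bound by STAT6 downstream of IL-4Rα, was found in 0 of the 7, against 5.85% of all windows. CANNTG, the core bound by MITF and other basic helix-loop-helix factors, was found in 3 of the 7, against 66.2% of all windows. The alike windows of Mcpt1 and Mcpt4 are not separate cases in these counts, and the base composition of the windows was not matched. Overlaps between motifs were not removed, and a match is a match of letters only.

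**Figure D1:**
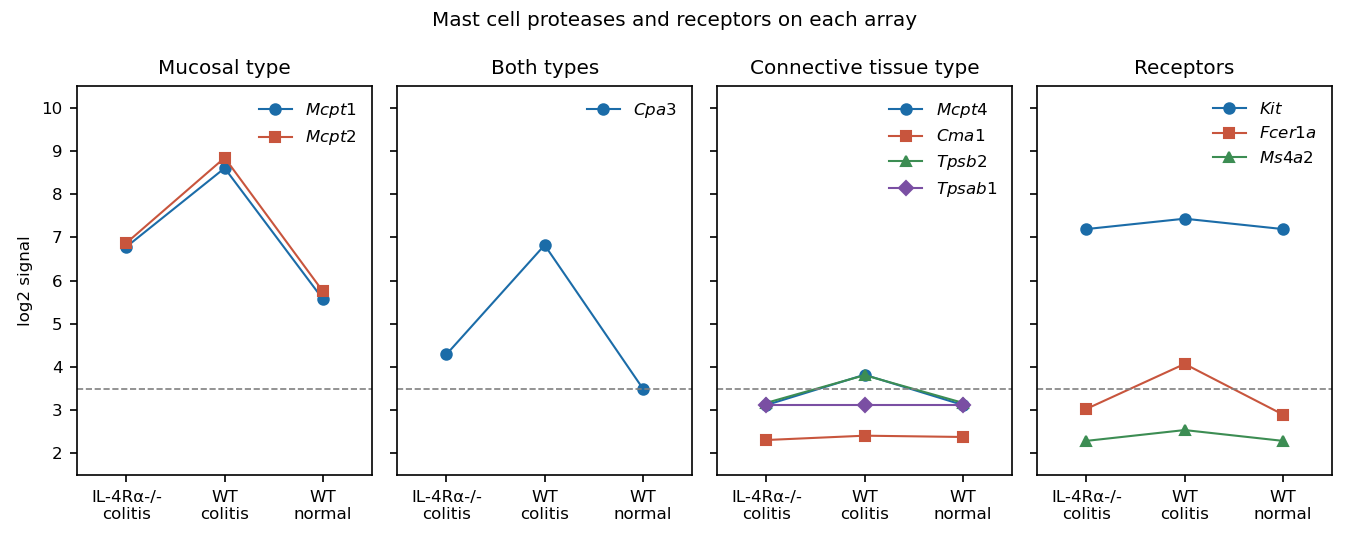
Log2 signal (y axis) of the 10 genes on the IL-4Rα-/- colitis, WT colitis and WT normal arrays (x axis), each symbol being the single pooled sample of a group and each line a gene, in panels for mucosal type, both types, connective tissue type and receptors. The dashed line is the background level of 3.5. Mcpt1, Mcpt2 and Cpa3 peak in WT colitis, while the connective tissue type proteases stay near or under the line.

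Mcpt1 and Mcpt2 were well above background on all 3 arrays and followed the same course. Mcpt1, which encodes mast cell protease 1, a chymase released into the gut lumen and blood, had a log2 signal of 6.78 in IL-4Rα-/- colitis, 8.60 in WT colitis and 5.57 in WT normal. Mcpt2, which encodes the related protease 2, had 6.87 in IL-4Rα-/- colitis, 8.84 in WT colitis and 5.75 in WT normal. Both peaked in WT colitis, and the IL-4Rα-/- colitis values lay between those of the other arrays. Compared with WT colitis, Mcpt1 was 3.53-fold and Mcpt2 3.92-fold lower in IL-4Rα-/- colitis, log2 differences of -1.82 and -1.97. Compared with WT normal, the log2 difference in WT colitis was 3.03 for Mcpt1 and 3.09 for Mcpt2, or 8.17-fold and 8.51-fold. In IL-4Rα-/- colitis both were still above WT normal, Mcpt1 by 2.31-fold and Mcpt2 by 2.17-fold. The chymases form a family of closely related genes, so a probe set of 1 can pick up transcript of another, and how far that happened here was not tested.

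Cpa3 had the widest range of the 10 in the deposited values. Its log2 signal was 4.29 in IL-4Rα-/- colitis, 6.82 in WT colitis and 3.50 in WT normal, where it was at background. Relative to WT colitis, the IL-4Rα-/- colitis value was 5.78-fold lower, a log2 difference of -2.53, and Cpa3 ranked 13 from the lowest of the 19938 genes. In the same order Mcpt2 ranked 32 and Mcpt1 39. WT colitis was at least 9.99-fold above WT normal, and from the highest such difference Cpa3 ranked 5, Mcpt2 ranked 7 and Mcpt1 ranked 10. The IL-4Rα-/- colitis pool was at least 1.73-fold above WT normal for Cpa3, so the order of the arrays was that of Mcpt1 and Mcpt2. With an offset of 32 added on the linear scale, which weakens dim values, the log2 difference between IL-4Rα-/- colitis and WT colitis was -1.49 for Cpa3, -1.72 for Mcpt2 and -1.57 for Mcpt1, and between WT colitis and WT normal it was 1.74 for Cpa3, 2.51 for Mcpt2 and 2.40 for Mcpt1, so Cpa3 then no longer had the widest range.

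The 4 proteases counted here as connective tissue type were dim. Mcpt4, which encodes the chymase of connective tissue mast cells closest in function to human chymase, had a log2 signal of 3.12 in IL-4Rα-/- colitis, 3.82 in WT colitis and 3.12 in WT normal. Tpsb2, the tryptase known as mast cell protease 6, had 3.17 in IL-4Rα-/- colitis, 3.81 in WT colitis and 3.17 in WT normal. Each was above background in WT colitis only, where Mcpt4 was at least 1.25-fold and Tpsb2 at least 1.24-fold above either other array. Cma1, the chymase known as mast cell protease 5, had 2.31 in IL-4Rα-/- colitis, 2.41 in WT colitis and 2.38 in WT normal, and was not above background on any array. Tpsab1, the tryptase known as mast cell protease 7, had 3.12 on all 3 arrays, also not above background. In the reference assembly, which is of another strain, Tpsab1 is annotated as a transcribed pseudogene.

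The mean log2 difference between IL-4Rα-/- colitis and WT colitis was -1.90 for Mcpt1 and Mcpt2 and -0.36 for the 4 connective tissue type proteases, a gap of -1.54. Between WT colitis and WT normal it was 3.06 and 0.34 for these types, a gap of 2.72. Between IL-4Rα-/- colitis and WT normal the gap was 1.18. Cpa3, with -2.53 and 3.32 in the first comparisons, was in neither mean. Counted with the connective tissue type, it would make each gap smaller. Because the connective tissue type genes lay at or near background, their small differences put no limit on how much such transcripts could have changed below the level the array can measure.

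Of the receptors, Kit was far above background and nearly level. It had a log2 signal of 7.19 in IL-4Rα-/- colitis, 7.43 in WT colitis and 7.19 in WT normal, differences of -0.24 from WT colitis and 0.24 over WT normal. Kit is also made by interstitial cells of Cajal, the pacemaker cells of gut muscle. Their chloride channel Ano1 had 7.72 in IL-4Rα-/- colitis, 7.09 in WT colitis and 8.16 in WT normal, and was lowest in WT colitis, where Kit was highest. Of the other markers listed for these cells, Etv1 had 5.60, 6.13 and 5.60 on the same arrays and Prkcq lay between 3.78 and 3.81. The share of the Kit signal that came from each cell type was not tested.

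The IgE-binding chain of FcεRI, Fcer1a, had 3.03 in IL-4Rα-/- colitis, 4.07 in WT colitis and 2.90 in WT normal. It was above background in WT colitis alone, and its measured log2 differences were -1.04 from WT colitis and 1.17 over WT normal. Counted from the background level, WT colitis was at least 1.48-fold higher than either other array, so its place past 2-fold depends on values under background. Ms4a2, the β chain that amplifies the receptor's signal, had 2.29 in IL-4Rα-/- colitis, 2.54 in WT colitis and 2.29 in WT normal and was at background throughout. Only Kit of the receptors was therefore measured above background on every array. In bulk tissue, fewer mast cells and less RNA per mast cell cannot be told apart.

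**Figure D2:**
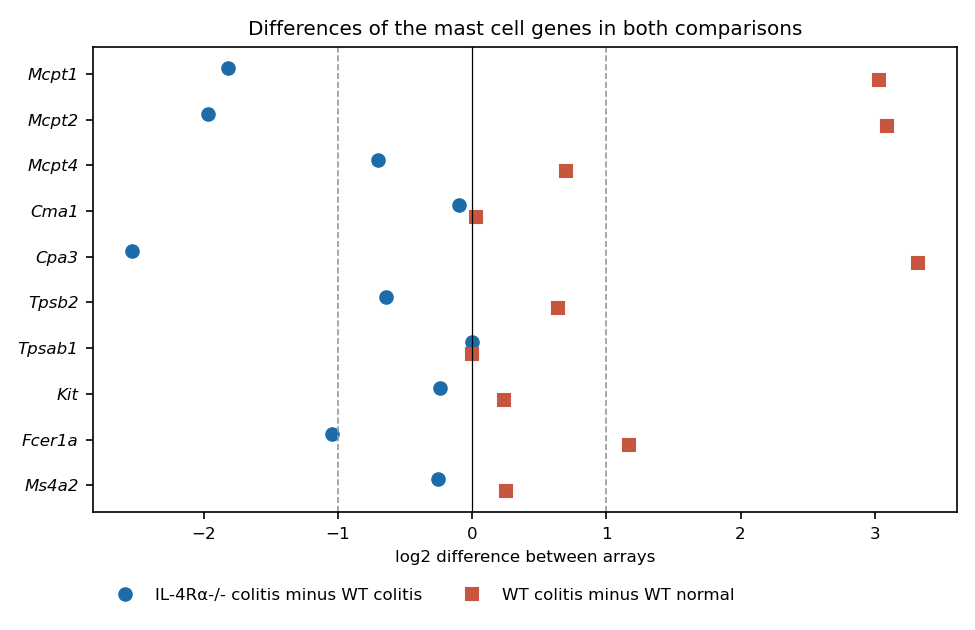
Log2 difference (x axis) of each of the 10 genes (y axis) for IL-4Rα-/- colitis minus WT colitis and for WT colitis minus WT normal, 1 point per gene and comparison, with dashed lines at 2-fold. Cpa3 (-2.53 and 3.32), Mcpt2 (-1.97 and 3.09) and Mcpt1 (-1.82 and 3.03) lie farthest out, and Fcer1a lies just past the lines.

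Counted over the 10 genes, 4 lay more than 2-fold below WT colitis in the IL-4Rα-/- colitis pool and 0 above it, against 0.908% below and 0.271% above of all genes. They were Cpa3, Mcpt2, Mcpt1 and Fcer1a. Fcer1a, at -1.04, was at -0.98 after quantile normalization and -0.97 with each array centred on its median, which left 3 genes, as did both settings for dim values. Only Cpa3 of the 10 was more than 4-fold lower, against 0.15% of all genes, and 0 were with the offset. The same 4 genes exceeded WT normal by more than 2-fold in WT colitis and 0 lay that far below, against 1.16% and 0.456% of all genes. Of these, Cpa3, Mcpt2 and Mcpt1, 3 genes, were past 4-fold, against 0.181% of all genes, and 2 were with the offset. Mcpt1 and Mcpt2 also exceeded WT normal by more than 2-fold in the IL-4Rα-/- colitis pool and 0 lay that far below, against 0.186% and 0.336% of all genes, and with the offset neither did, at 0.84 for Mcpt1 and 0.80 for Mcpt2. The median log2 difference of the 10 was -0.67 between IL-4Rα-/- colitis and WT colitis, 0.67 between WT colitis and WT normal, and 0.00 between IL-4Rα-/- colitis and WT normal, where the median over all genes was 0.00 in each comparison. The first of these comparisons and the second share the WT colitis array, so they are not independent of each other. Of the 10 genes, 9 had their highest value in WT colitis, against 30.4% of all genes, and Tpsab1 was the exception. With differences rounded to 2 decimals, the number was 8 after quantile normalization, with centring and with the offset. It was 7 with values under background raised to it. Cma1, whose difference between WT colitis and WT normal was 0.03 as deposited and -0.04 with centring, was left out in each. With the offset it was left out by the rounding alone, since an offset keeps the order of the arrays. Mcpt4, Tpsb2, Tpsab1, Kit and Ms4a2 had exactly the same value in IL-4Rα-/- colitis and WT normal, 5 of the 10 against 65.8% of all genes, and 1 of them, Tpsab1, was equal on all 3 arrays, against 45.8%. Cma1, Tpsab1 and Ms4a2 were not above background on any array, which was so for 36.8% of all genes. The number above background was 4 of the 10 in IL-4Rα-/- colitis, 7 in WT colitis and 3 in WT normal. Of all 19938 genes it was 12289, 12549 and 12325 on the same arrays.

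The chymase genes sit together on mouse chromosome 14, in a row that runs from Cma1 to granzyme B (Gzmb) and holds 15 protein-coding genes in the RefSeq annotation. Of these, 13 had a probe set of their own, and Cma2 and Mcpt9 shared probe sets that are left out. The neighbours Mcpt1 and Mcpt2 had differences alike in sign and size, Mcpt4 was the next measured gene of the row, and on its far side Mcpt8, a basophil protease, and Ctsg, cathepsin G, had 2.36 and 2.53 on every array. Granzymes c to g and n had signals of 2.07 to 2.38 and differed by at most 0.03 between arrays. At the end of the row Gzmb, a protease of cytotoxic lymphocytes, had another order of arrays, with 5.63 in IL-4Rα-/- colitis, 4.79 in WT colitis and 4.30 in WT normal. On chromosome 17, the row from Prss34 to Tpsg1 holds Tpsab1 and Tpsb2, and 0 of its 6 genes was past 2-fold in any comparison. At most 1.16% of all genes were in any comparison and direction. Tpsg1, a transmembrane tryptase, had 7.15 in IL-4Rα-/- colitis, 7.15 in WT colitis and 7.50 in WT normal, and the related genes Prss22, Prss27 and Prss41 had 1 value each on all arrays.

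**Figure D3:**
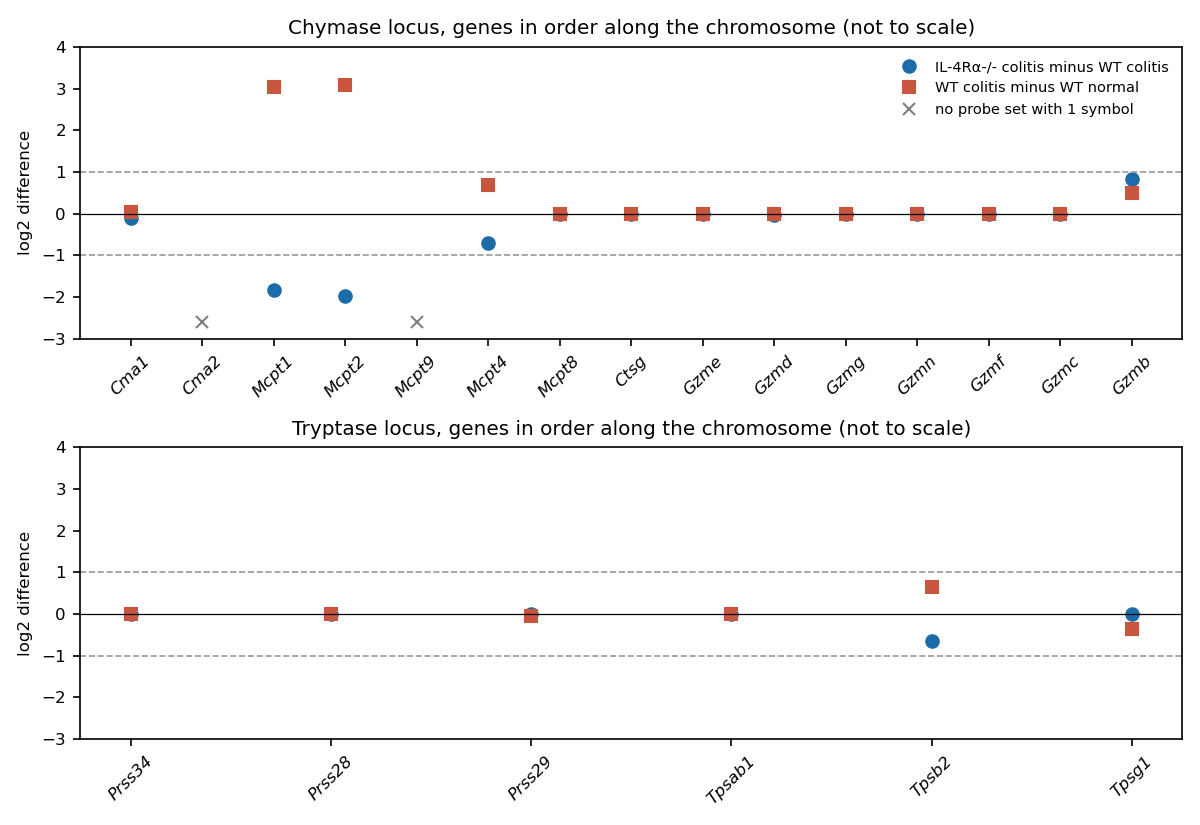
Log2 difference (y axis) of the genes of the chymase locus and of the tryptase locus in their order along the chromosome (x axis, order only), for IL-4Rα-/- colitis minus WT colitis and WT colitis minus WT normal. Only Mcpt1 and Mcpt2 lie outside the dashed 2-fold lines, and crosses at the lower edge mark genes with no probe set of their own.

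A list of further mast cell genes gave 15 measured genes, of which 1 (Mitf) lay more than 2-fold below WT colitis in the IL-4Rα-/- colitis pool and 0 above, against 0.908% and 0.271% of all genes, the list's median log2 difference being -0.23. In WT colitis 2 of them (Mitf and Srgn) exceeded WT normal by more than 2-fold and 0 lay that far below, against 1.16% and 0.456% of all genes, and the median was 0.27. Mitf, a transcription factor of the mast cell lineage that other cells use too, had 4.54 in IL-4Rα-/- colitis, 5.60 in WT colitis and 4.31 in WT normal. Srgn, the proteoglycan core on which granule proteases are packed in mast cells and other blood cells, had 9.21 in IL-4Rα-/- colitis, 10.21 in WT colitis and 8.98 in WT normal. Both had the order seen for Mcpt1, Mcpt2 and Cpa3. Slc18a2, which loads amines such as histamine into granules, had 3.89 in IL-4Rα-/- colitis, 4.70 in WT colitis and 3.89 in WT normal. Hdc, which makes histamine, had 3.31, 3.68 and 3.31 on the same arrays, close to background. Gata2, a GATA factor of mast cells, had 3.89 in IL-4Rα-/- colitis, 4.35 in WT colitis and 3.89 in WT normal, and Gata1 had 3.13 on every array. Mrgprb2, a receptor of connective tissue mast cells, had 2.20 on every array, and its relative Mrgprb1 was at 2.60 or lower.

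Downstream of FcεRI, 0 of 9 signalling genes were past 2-fold in any comparison. At most 1.16% of all genes were in any comparison and direction, so this count says little about these 9. The lowest log2 difference between IL-4Rα-/- colitis and WT colitis was -0.62, for the kinase gene Fyn. Fcer1g, the γ chain that FcεRI shares with other Fc receptors, had 6.51 in IL-4Rα-/- colitis, 6.74 in WT colitis and 6.51 in WT normal. Among 15 measured genes for growth and homing of mast cells, 1 was past 2-fold between IL-4Rα-/- colitis and WT colitis. Of all genes, 0.908% were more than 2-fold lower there and 0.271% higher. It was Vcam1, an endothelial adhesion molecule for leukocytes, with 6.09 in IL-4Rα-/- colitis, 7.34 in WT colitis and 4.98 in WT normal, again the order of the mucosal proteases. Kitl, which encodes stem cell factor, the ligand of Kit, had 7.38, 7.62 and 7.38 on the same arrays. The cytokine genes Il3, Il4, Il9 and Il13 were not above background on any array, so these values cannot show whether they were absent or differed. Tgfb1 had 6.40 in IL-4Rα-/- colitis, 6.70 in WT colitis and 6.45 in WT normal, and Itgb6, a subunit of the epithelial integrin that activates TGF-β, had 7.08, 7.12 and 6.81. Of 4 measured genes for the IL-4 receptor chains and Stat6, Il4ra itself was the 1 past 2-fold. Its log2 difference was -1.87 between IL-4Rα-/- colitis and WT colitis, where 0.908% of all genes were more than 2-fold lower.

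Genes of other cell types were set beside these values. All 3 basophil markers were at background and identical on the 3 arrays, against 36.8% and 45.8% of all genes. Among them were Mcpt8 and Prss34. Of 6 eosinophil genes, 5 were at background on all arrays, against 36.8% of all genes, and the list differed by at most 0.31 between arrays. Of 11 neutrophil genes, 9 had a lower value on the IL-4Rα-/- colitis array than on the WT colitis array, against 37.3% of all genes. Of the 11, 1 was more than 2-fold lower, against 0.908% of all genes, and the median was -0.25. On the WT colitis array 8 of the 11 exceeded WT normal, against 35.8% of all genes. The same 1 gene was more than 2-fold higher, against 1.16% of all genes, and the median was 0.47. That gene was S100a8, with 2.58 in IL-4Rα-/- colitis, 4.27 in WT colitis and 2.62 in WT normal, so both other arrays were at background. Of 10 macrophage and monocyte genes, 8 had a lower value on the IL-4Rα-/- colitis array than on the WT colitis array, against the same 37.3% of all genes. The median was -0.205, and 0 were past 2-fold, against 0.908% lower and 0.271% higher of all genes. The medians of 11 genes of T, NK and innate lymphoid cells were 0.00 in both comparisons. As deposited, neutrophil and macrophage medians thus had the sign of the median of the 10 mast cell genes and were closer to 0. The median of the 10 depends on dim genes. For IL-4Rα-/- colitis minus WT colitis it was -0.32 with values under background raised to it and -0.19 with the offset of 32. The other lists were not recomputed under these settings, and 5 of the 11 neutrophil genes were above background on no array. The part of neutrophils and macrophages in the results was not tested.

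**Figure D4:**
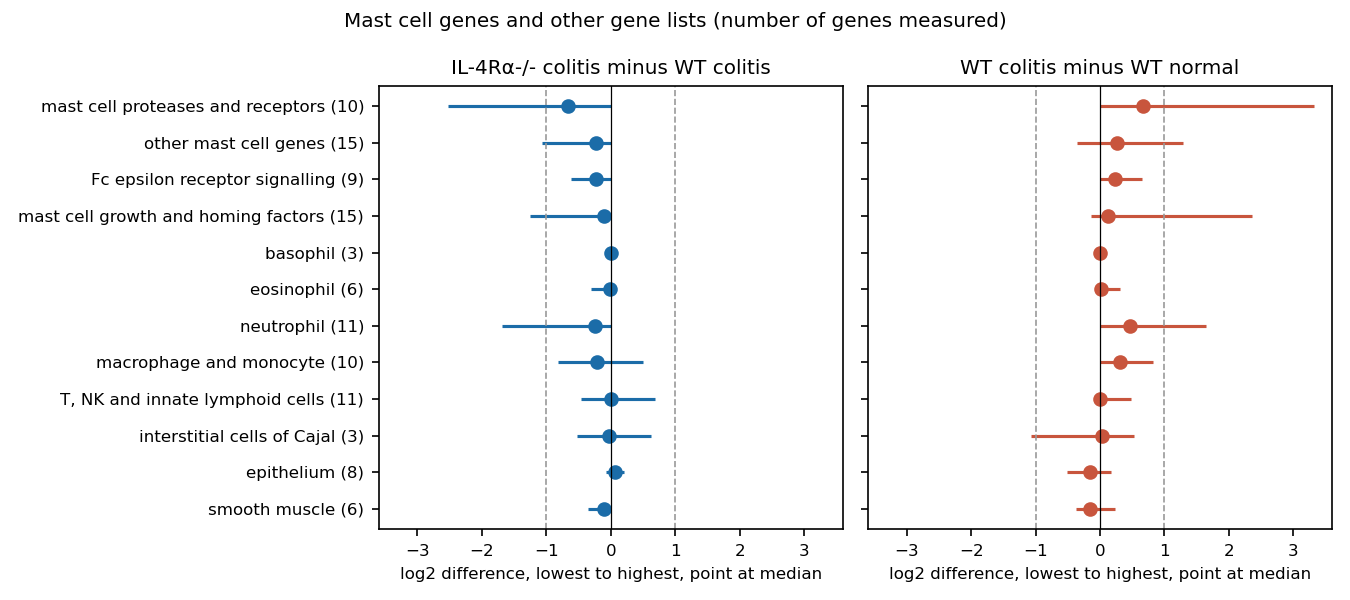
Log2 difference (x axis) of the 10 mast cell genes and of other gene lists (y axis, number of genes measured in brackets), for IL-4Rα-/- colitis minus WT colitis on the left and WT colitis minus WT normal on the right. Points are list medians and lines run from the lowest to the highest gene. The 10 mast cell genes have medians of -0.67 and 0.67 and reach -2.53 and 3.32.

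The 5 genes whose 3 values, each centred on their own mean, were nearest to the mean course of Mcpt1 and Mcpt2 were Grem1, Mmp13, Pappa, Cpa3 and Igfbp5. Likeness was the Euclidean distance over the 3 arrays, from 0.14 for Grem1 to 0.46 for Igfbp5, with Cpa3 at 0.45 in place 4. Grem1, which encodes an antagonist of bone morphogenetic proteins made by stromal cells, had 8.39 in IL-4Rα-/- colitis, 10.37 in WT colitis and 7.42 in WT normal. Pappa, a protease that cleaves insulin-like growth factor binding proteins, had 5.55 in IL-4Rα-/- colitis, 6.99 in WT colitis and 4.46 in WT normal. Mmp13, a collagenase, had 5.43 in IL-4Rα-/- colitis, 7.70 in WT colitis and 4.66 in WT normal. Igfbp5, an insulin-like growth factor binding protein, had 8.09 in IL-4Rα-/- colitis, 10.63 in WT colitis and 7.26 in WT normal. Of these 5 genes, Cpa3 is the 1 mast cell gene. Of the other members, Fcer1a was next with a distance of 1.34, at place 129, and Mcpt4 followed at place 516.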

How the data were processed

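RNA of distal colon was pooled by group and hybridised to 3 arrays, which the methods name as GeneChip Mouse Gene arrays, while the labels describe Cy3 labelling for another platform. Log2 values for 28944 probe sets, given to 2 decimals, were used as the authors deposited them. The summary and normalization steps and the genome build are not given in the sources used here. The number of arrays limits the precision, and identical values on several arrays are left as deposited. Gene symbols came from the platform annotation. A single symbol was given for 21789 probe sets (21698 found in RefSeq through the gene number), several for 1621 and none here for 5534. The probe set with the highest mean over the 3 arrays stood for a gene. Log2 differences, counts past 2-fold and 4-fold and list medians were computed, without tests. The genes named were the 10 members, Il4ra, up to 4 genes past 2-fold in each other list, and the 5 nearest in course. Others, such as Kitl, Ano1 and Gzmb, were named for their role or place, after their values were seen. The members and lists were chosen with earlier results of these data known. The counting and distance steps were tested on simulated data. Alternatives were quantile normalization, centring, an offset of 32 on the linear scale, raising values to the background level, the mean of probe sets, and probe sets with several symbols. Promoter windows were aligned with free end gaps in biopython 1.88. The work used Python 3.11.15, numpy 2.4.6, pandas 2.3.3 and matplotlib 3.10.9.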

Additional observations from a re-analysis of the deposited data

How the results depend on the processing

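The first 4 settings were quantile normalization, centring of each array on its median, the mean of probe sets, and probe sets with several symbols included. Under these, the medians and the gaps between protease types moved from the reported values by less than a scatter of log2 differences. That scatter was taken over 15368 probe sets and leaves out those equal on all 3 arrays. It was 0.148 between IL-4Rα-/- colitis and WT colitis, 0.178 between the WT arrays and 0.089 between IL-4Rα-/- colitis and WT normal. The number of genes more than 2-fold below WT colitis in IL-4Rα-/- colitis was 3 in place of 4 after quantile normalization and centring, where Fcer1a was at -0.98 and -0.97, and the other counts past 2-fold were equal under these 4 settings. The members have 1 probe set with a single symbol each, so taking the mean of probe sets could not change their values. Including probe sets with several symbols could have changed them, and left them equal. With an offset of 32, the median of the 10 genes was -0.19 between IL-4Rα-/- colitis and WT colitis and 0.19 between WT colitis and WT normal, the gap between mucosal and connective tissue types was 2.37 between the WT arrays and 0.82 between IL-4Rα-/- colitis and WT normal, and 0 genes of the IL-4Rα-/- colitis pool exceeded WT normal by more than 2-fold. With values under background raised to 3.5, the medians were -0.32 and 0.32, and the gaps -1.74 for IL-4Rα-/- colitis minus WT colitis and 2.90 for WT colitis minus WT normal. Under both of these settings, which shrink differences of dim genes by construction, Fcer1a passed 2-fold in neither comparison with WT colitis, which left 3 genes in each. With the offset, Cpa3 lost its place past 4-fold below WT colitis (-1.49) and above WT normal (1.74). Of the 5 genes nearest in course, 2 stayed among the nearest with the offset and 3 with probe sets of several symbols. Cma1, under background on each array, differed by -0.04 between WT colitis and WT normal with centring, against 0.03 as deposited, and no member's difference past 2-fold changed sign under the alternatives run. No paired analysis was possible because each group had 1 array.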

Other observations

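Granzymes c to g and n were at background, while Gzmb and Gzma, granzyme genes of lymphocytes, had another order of arrays than Mcpt1, Mcpt2 and Cpa3. Gzmb had a log2 signal of 5.63 in IL-4Rα-/- colitis, 4.79 in WT colitis and 4.30 in WT normal, and Gzma had 5.38, 4.69 and 4.26 on the same arrays, so both were highest in IL-4Rα-/- colitis. The log2 difference between IL-4Rα-/- colitis and WT colitis was 0.84 for Gzmb and 0.69 for Gzma, within 2-fold, and over WT normal it was 1.33 and 1.12. These genes were picked out after their values were seen.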
